A study of Mus musculus with 6 samples.

Results

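Interferon-induced genes and genes of the major histocompatibility complex (MHC) were compared between livers of mice lacking CREBH (CREBH-KO) and wild-type (WT) livers, with 3 libraries per genotype. Creb3l3 encodes CREBH, a transcription factor that sits in the endoplasmic reticulum membrane of liver cells until it is cleaved. All mice had been fasted for 14 h, and total RNA of whole liver was sequenced. The labels give no strain, sex or age, and do not say which part of Creb3l3 the knockout lacks. The genes were chosen by symbol among protein-coding genes of GENCODE M21: 62 interferon members (among them Ifit, Ifi, Isg, Oas and Gbp genes, Irf1 to Irf9, Stat2, Usp18, Rsad2 and Mx1) and 39 MHC members (H2 genes, B2m, Tap1, Tap2, Nlrc5 and Ciita). These are 101 of 22028 protein-coding genes, and of 55536 genes counted. Mx2, Oas1b, Gbp11 and Ifi30 are not annotated as protein-coding in that release and were not members.

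Interferons bind receptors that activate the kinases JAK1, JAK2 and TYK2. Transcription factors of the STAT and IRF families then enter the nucleus and switch on genes that carry an interferon-stimulated response element (ISRE), many of which encode antiviral proteins. MHC class I molecules, a heavy chain paired with beta-2-microglobulin, show peptides from inside the cell to CD8 T cells and are made by most cells, hepatocytes included. MHC class II molecules show peptides from outside the cell to CD4 T cells and are made mainly by macrophages, dendritic cells and B cells. NLRC5 is the known coactivator of class I genes and CIITA that of class II genes.

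Creb3l3 was read at 467, 496 and 495 CPM (counts scaled by effective library size) in WT 1, 2 and 3 and at 57.4, 45.0 and 46.4 CPM in CREBH-KO 1, 2 and 3, so each library fitted its label. Gene-assigned reads numbered 28106243 to 39288819 per library. The hepatocyte markers Alb, Ttr, Hnf4a, Cps1 and Arg1 summed to 53190 to 67370 CPM in WT and 64010 to 69430 CPM in CREBH-KO. Alb made up most of these sums, and 1 of the 5 rose, Arg1 (0.46 ± 0.13 SE on the log2 scale, edgeR adjusted p = 0.0486). For 2 knockout libraries, CREBH-KO 2 and 3, the labels report the loss of a first-read file, so results are also given for CREBH-KO 1 alone where they change. Replicate numbers only name libraries. Nothing says that each sample was a separate animal, so p-values measure the spread between these samples.

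In CREBH-KO liver the called interferon members were higher and the called MHC members were lower. Of 52 interferon members with enough counts to test, 4 rose (7.69%), none fell and 48 did not pass. Of 25 tested MHC members, 9 fell (36%), none rose and 16 did not pass. Over all 15589 tested genes, 10.4% passed edgeR's quasi-likelihood test at a Benjamini-Hochberg adjusted p under 0.05, 3.91% being higher and 6.46% lower in CREBH-KO. With edgeR, the interferon share called in either direction was thus below that of all genes, and the MHC share above it. The median log2 fold change (CREBH-KO minus WT) was 0.28 for interferon members, -0.37 for MHC members and 0.02 for all tested genes. Values were above 0 for 39 of 52 interferon members and below 0 for 20 of 25 MHC members. At an unadjusted p under 0.05 (25.2% of all tested genes), 13 interferon members were higher and 2 lower, and no MHC member was higher and 11 were lower. DESeq2 called 9 interferon members higher and 1 lower, and limma-voom 4 and 0. Over all tested genes DESeq2 called 814 higher and 1309 lower, and limma-voom 600 and 1010. The interferon share called in either direction was thus above that of all genes in DESeq2. For MHC members DESeq2 called 10 lower and limma-voom 8, and neither called any higher. The difference between the lists was not tested. The median of interferon members stayed above 0, and that of MHC members below 0, with library size alone (0.35 and -0.30) and with upper-quartile factors (0.31 and -0.34).

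**Figure D1:**
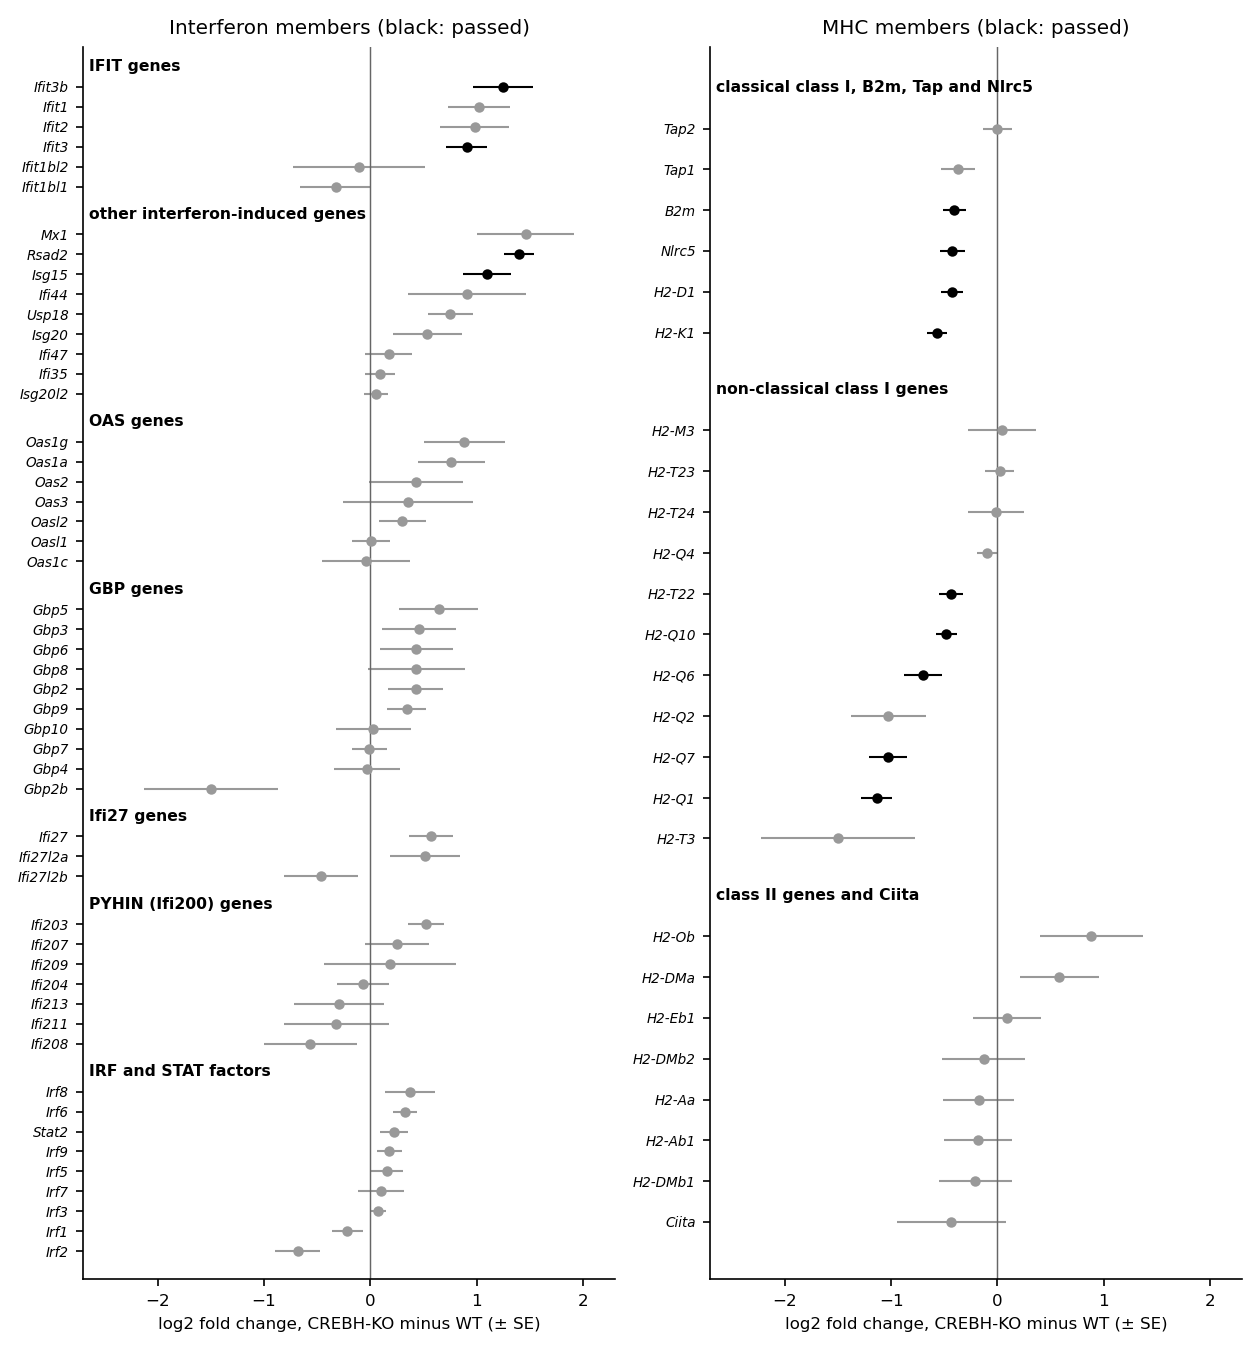
Log2 fold change with its standard error (horizontal axis, CREBH-KO minus WT) for 51 of the 52 tested interferon members (left) and the 25 tested MHC members (right), by gene family. Black points passed the test at an adjusted p under 0.05: 4 lie to the right among interferon members and 9 to the left among MHC members, all of the latter in the class I groups.

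The interferon members that rose were Rsad2, Isg15, Ifit3 and Ifit3b. Rsad2 (viperin), an antiviral enzyme that makes a chain-terminating nucleotide, lies on chromosome 12 from 26442746 to 26456452 (GRCm38, minus strand). It was read at 11.7, 13.5 and 15.4 CPM in WT 1, 2 and 3 and at 37.2, 29.4 and 40.4 CPM in CREBH-KO 1, 2 and 3. Every CREBH-KO library was above every WT library. Its mean rose from 13.6 ± 1.87 to 35.7 ± 5.68 CPM (SD, n = 3), a log2 fold change of 1.40 ± 0.14 (SE, edgeR adjusted p = 7.04e-04). Rsad2 was also the member whose call held in all 13 alternative fits, including CREBH-KO 1 alone against WT.

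Isg15, a ubiquitin-like protein that is attached to other proteins during the interferon response, lies on chromosome 4 (156199424 to 156200818, minus strand). It stood at 4.06, 4.82 and 4.06 CPM in WT and 11.8, 6.32 and 9.49 CPM in CREBH-KO libraries 1 to 3. The genotypes did not overlap, with CREBH-KO 2 nearest to WT. The log2 fold change was 1.09 ± 0.23 (SE, n = 3, edgeR adjusted p = 0.0174). Ifit3, which binds other IFIT proteins in complexes that hold viral RNA, was read at 6.05, 7.57 and 7.93 CPM in WT and 15.9, 9.90 and 14.5 CPM in CREBH-KO. It lies on chromosome 19 (34583531 to 34588731, plus strand), and its log2 fold change was 0.91 ± 0.19 (SE, edgeR adjusted p = 0.0195). Its neighbour Ifit3b, 24.4 kb away on the same strand, rose from 1.27, 1.66 and 2.37 CPM to 4.48, 3.21 and 4.83 CPM (1.25 ± 0.28, edgeR adjusted p = 0.0248). Ifit3 and Ifit3b are close copies of each other, so how reads were split between them is uncertain. In each of these 3 genes the lowest CREBH-KO library was CREBH-KO 2.

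The number of interferon members that rose changed when single libraries were left out. It was 1 without WT 2, 2 without CREBH-KO 1, 7 without CREBH-KO 2 and 1 without CREBH-KO 3. Over all tested genes the number that rose was 609 with every library. It was 209, 448, 288 and 263 in those fits, in the same order. Calls were lost for Isg15 without WT 2, WT 3 or CREBH-KO 3, and for Ifit3 without WT 2, CREBH-KO 1 or CREBH-KO 3 (edgeR adjusted p up to 0.0608 and 0.0724). That of Ifit3b was lost without the same libraries as Ifit3 and against CREBH-KO 1 alone (adjusted p up to 0.180).

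**Figure D2:**
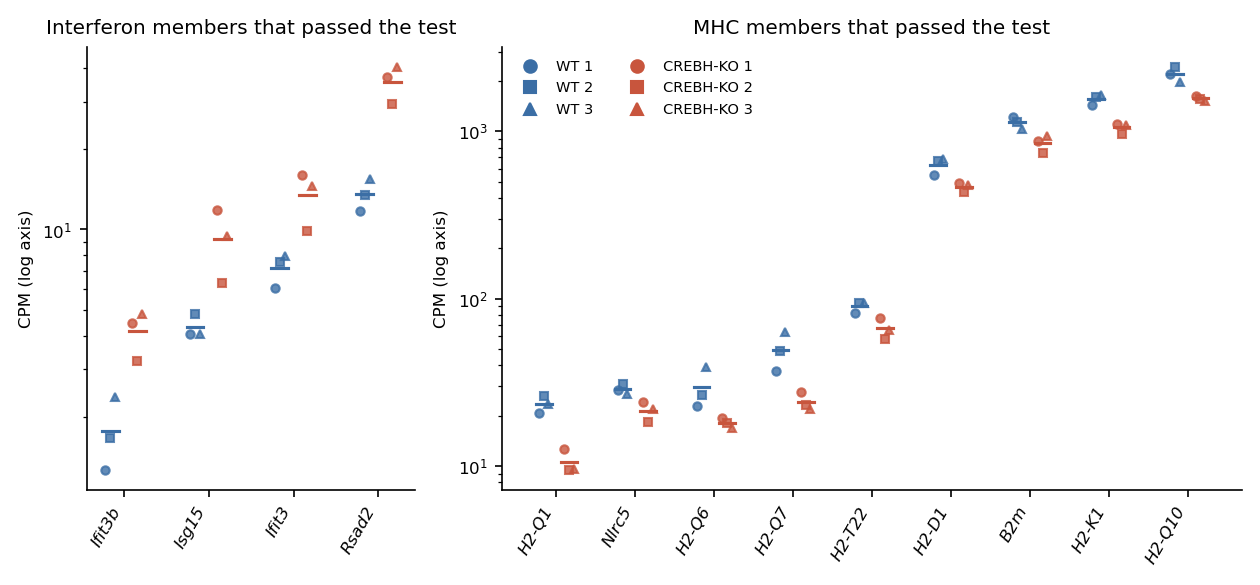
Level in CPM (log axis) of the 13 members that passed the test, in each library (blue WT, red CREBH-KO; circle, square and triangle are libraries 1, 2 and 3; bars are means). In all 13 genes the 3 CREBH-KO libraries lie on 1 side of the 3 WT libraries. They lie above for the interferon members, from 13.6 to 35.7 CPM on average for Rsad2. For the MHC members they lie below, from 1568 to 1056 CPM for H2-K1. The 13 genes were picked by a test of the same difference, and 30.6% of all tested genes did not overlap.

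The promoters of the risers are shown because each holds ISRE letters, the known binding element of interferon-activated transcription factors. Sequences are the 200 bases before the RefSeq transcription start (GRCm38.p6), written 5' to 3' on the gene's strand. Capitals mark the searched letters, GAAA, then any 2 bases, then GAAA, on either strand.
Rsad2 (chr12:26456453-26456652, minus strand): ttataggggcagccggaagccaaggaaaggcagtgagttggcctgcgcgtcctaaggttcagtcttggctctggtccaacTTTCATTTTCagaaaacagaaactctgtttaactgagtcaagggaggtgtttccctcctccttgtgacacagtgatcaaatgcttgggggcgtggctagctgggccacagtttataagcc
Isg15 (chr4:156200819-156201018, minus strand): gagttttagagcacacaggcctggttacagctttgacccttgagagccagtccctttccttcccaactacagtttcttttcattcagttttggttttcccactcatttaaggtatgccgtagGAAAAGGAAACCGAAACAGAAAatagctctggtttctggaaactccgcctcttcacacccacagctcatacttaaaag
Ifit3 (chr19:34583329-34583528, plus strand): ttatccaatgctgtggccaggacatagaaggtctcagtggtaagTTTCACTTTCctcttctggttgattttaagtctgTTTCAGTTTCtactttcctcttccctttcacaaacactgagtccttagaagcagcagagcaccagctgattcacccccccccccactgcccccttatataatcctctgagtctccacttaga
Ifit3b (chr19:34607757-34607956, plus strand): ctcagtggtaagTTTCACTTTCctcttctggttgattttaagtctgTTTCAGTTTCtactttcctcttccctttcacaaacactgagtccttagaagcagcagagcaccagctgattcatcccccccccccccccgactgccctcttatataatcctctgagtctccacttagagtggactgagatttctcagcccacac
In Isg15 there are 3 overlapping matches between 78 and 57 bases before the start. Rsad2 has 1 on the opposite strand, from 120 to 111 bases before the start. Ifit3 and Ifit3b have 2 each on that strand. The same letters stood in a window from 250 bases before to 50 bases after a start in 60.5% of the 38 tested interferon members that the RefSeq table covers. They stood in 3.82% of the 10735 tested genes it covers, and in 3.44% of all 32851 windows in it. The 23 interferon members with the letters had a median of 0.35 on the log2 scale, and 4 of them rose. None of the 15 members without them rose or fell, and their median was 0.17. Of 384 other tested genes with the letters, 4.43% rose and 7.03% fell, beside 4.04% and 6.89% of the 10294 without. The letters describe the sequence and do not show that a factor was bound.

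Most of the other tested interferon members had values above 0 without passing. Usp18, the protease that removes ISG15 and damps interferon receptor signalling, was read at 6.31, 8.95 and 7.02 CPM in WT and 15.2, 8.89 and 13.3 CPM in CREBH-KO. Only CREBH-KO 2 fell within the range of WT (0.75 ± 0.21 SE, edgeR adjusted p = 0.0556). Ifit1, which binds viral RNA lacking host cap marks, showed the same arrangement, with 5.92, 7.01 and 9.30 CPM against 20.9, 8.72 and 15.5 CPM (1.03 ± 0.29, edgeR adjusted p = 0.0563). Mx1, an antiviral dynamin-like GTPase, had the highest fitted value of the list, 1.46 ± 0.46, at only 0.595 to 1.76 CPM in WT and 1.66 to 4.33 CPM in CREBH-KO (edgeR adjusted p = 0.0770). Ifit2 stood at 0.98 ± 0.33 with no overlap between genotypes (edgeR adjusted p = 0.0927). Without CREBH-KO 2, Usp18 and Ifit1 passed, and DESeq2 called Usp18, Ifit1, Ifit2, Mx1 and Ifi27.

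By family, 2 of 6 tested IFIT genes rose, beside 3.91% of all tested genes, and the median of the 6 was 0.95. The OAS genes, which make the second messenger that activates RNase L, had a median of 0.35 over 7 tested genes. The GBP genes, GTPases that attack pathogen vacuoles, had a median of 0.39 over 10. None of either family passed in edgeR, DESeq2 or limma-voom. At an unadjusted p under 0.05, 2 OAS genes were higher (28.6%) and 1 GBP gene was lower (10%), beside 25.2% of all tested genes in either direction. Oas1a was read at 0.776, 0.657 and 0.878 CPM in WT and 1.35, 1.01 and 1.56 CPM in CREBH-KO (0.76 ± 0.31, edgeR adjusted p = 0.166), and Oasl1 stood at 0.01 ± 0.18. Gbp2 had a log2 fold change of 0.43 ± 0.26. The PYHIN genes, some of which sense DNA, had a median of -0.07 over 7 tested genes, none of which passed with any of the 3 tools, and at an unadjusted p under 0.05 1 was higher (14.3%). Ifi27, a mitochondrial protein gene and per kilobase of exon the most abundant interferon member in WT (39.7 ± 12.8 CPM per kb, SD, n = 3), was read at 39.6, 57.8 and 77.3 CPM in WT and 98, 76.8 and 85.1 CPM in CREBH-KO. Its genotypes touched, since CREBH-KO 2 lay just under WT 3 (0.57 ± 0.21, edgeR adjusted p = 0.116). Ifi47, an immunity-related GTPase, was near 0 (0.17 ± 0.22).

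The transcription factors of the pathway did not pass. Of 10 tested IRF and STAT genes, none was called in edgeR or limma-voom, DESeq2 called Irf2 lower, and at an unadjusted p under 0.05 1 was higher and 1 lower. Stat2 and Irf9, factors activated by type I interferon signalling, had log2 fold changes of 0.23 ± 0.13 and 0.18 ± 0.12 (SE, edgeR adjusted p = 0.321 and 0.377). Irf7, the factor that amplifies type I interferon and is itself strongly interferon-induced, stood at 18.2, 27.7 and 29.7 CPM in WT and 33.6, 19.9 and 27.2 CPM in CREBH-KO. The genotypes of Irf7 overlapped widely (0.10 ± 0.22, edgeR adjusted p = 0.819), and its value turned to -0.10 without WT 1 and to -0.09 without CREBH-KO 1. Irf3, the constitutive factor downstream of nucleic acid sensors, differed little (0.07 ± 0.07). Irf1, a factor induced by interferon gamma that drives class I genes, was read at 24.7, 26.4 and 35.6 CPM in WT and 27.8, 22.8 and 24 CPM in CREBH-KO (-0.21 ± 0.14, edgeR adjusted p = 0.398). Irf2, which binds the same element as IRF1 and opposes it, had the lowest value of the factors (-0.68 ± 0.21, edgeR adjusted p = 0.0758). It was read at 39.8, 61.8 and 63.9 CPM in WT and 40.2, 24.8 and 38.0 CPM in CREBH-KO, with CREBH-KO 1 just above WT 1. Irf8, a factor of macrophages and dendritic cells, stood at 0.37 ± 0.24.

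Among other genes of the interferon pathway, 5 of 61 tested rose (8.20%) and 2 fell (3.28%), beside 3.91% and 6.46% of all tested genes, with a median of 0.25. The share called in either direction was thus near the 10.4% of all genes. Of 10 interferon genes listed, 8 had no count in any library, Ifnb1 among them. Over all libraries a count of 0 allows up to 0.0151 CPM (3 counts, counting error only). For Ifng there were 6 counts in CREBH-KO libraries and 0 in WT. It stood at 0.146, 0 and 0.0306 CPM in CREBH-KO 1, 2 and 3. For Ifnk there were 8 counts in WT and 7 in CREBH-KO. Both genes were too low to test. None of the 5 tested receptor genes was called in edgeR, DESeq2 or limma-voom, and at an unadjusted p under 0.05 1 was higher. Of the signalling genes, the phosphatase genes Ptpn2 (0.53 ± 0.13, edgeR adjusted p = 0.0373) and Ptpn6 (0.42 ± 0.09, edgeR adjusted p = 0.0216) rose. Both encode phosphatases that damp JAK-STAT signalling, and PTPN6 is most abundant in blood cells. None of 14 tested sensor and adaptor genes was called by any of the 3 tools, and at an unadjusted p under 0.05 1 was higher. No gene named Mb21d1 is in the release used, so that listed sensor was not analysed here.

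Of 34 further induced genes, Cmpk2, Tgtp2 and Ube2l6 rose and Dtx3l and Parp9 fell. Cmpk2, a nucleotide kinase whose product feeds viperin, starts 12.8 kb from Rsad2 on the opposite strand. It was read at 5.12, 4.63 and 4.49 CPM in WT and 9.63, 10 and 13.9 CPM in CREBH-KO (1.24 ± 0.18 SE, edgeR adjusted p = 0.00324). Every CREBH-KO library of Cmpk2 was above every WT library, as for Rsad2. Ube2l6, the conjugating enzyme for ISG15, rose by a smaller amount (0.41 ± 0.08, edgeR adjusted p = 0.0144). Tgtp2, an immunity-related GTPase gene with a close copy in Tgtp1, rose by 1.14 ± 0.30 (edgeR adjusted p = 0.0427). In the other direction, the ubiquitin ligase gene Dtx3l and its partner Parp9, whose starts lie 681 bases apart on opposite strands, fell together. Dtx3l was read at 46.8, 51.9 and 44.0 CPM in WT and 23, 18.1 and 22.8 CPM in CREBH-KO (-1.16 ± 0.11, edgeR adjusted p = 5.71e-04). Parp9 fell less (-0.53 ± 0.09, edgeR adjusted p = 0.00587). The call of Dtx3l held in all 13 alternative fits. The count of 7 called pathway genes was 3 without WT 2 and 4 without CREBH-KO 2 or CREBH-KO 3. All tested genes had fewer calls too, 209 higher and 449 lower without WT 2 against 609 and 1007 with every library. With CREBH-KO 1 alone against WT, the median of the list was 0.33, beside -0.01 for all tested genes. Leaving out WT 2 ended the calls of Ptpn2, Ptpn6, Ube2l6 and Tgtp2. Leaving out CREBH-KO 1 ended those of Ptpn2 and Tgtp2, CREBH-KO 2 those of Ptpn2, Ptpn6 and Tgtp2, and CREBH-KO 3 those of Ptpn6, Ube2l6 and Tgtp2. Ptpn2 also needed WT 3, and Tgtp2 WT 1. With CREBH-KO 1 alone all called genes of this list but Dtx3l missed the threshold (edgeR adjusted p up to 0.422 over all these fits).

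Of 17 tested MHC class I members, 9 fell in CREBH-KO and 8 did not pass. All 9 MHC members that fell belong to class I: the classical heavy chain genes H2-K1 and H2-D1, the light chain gene B2m, the coactivator gene Nlrc5 and the non-classical genes H2-Q1, H2-Q6, H2-Q7, H2-Q10 and H2-T22. H2 genes differ in sequence between mouse strains, and the haplotype of these mice is not given, so its part in how reads were counted for H2 genes was not tested. H2-K1 (chromosome 17, 33996017 to 34000347, minus strand) was read at 1436, 1614 and 1652 CPM in WT and 1109, 970.5 and 1090 CPM in CREBH-KO. The lowest WT library was above the highest CREBH-KO library. The log2 fold change of H2-K1 was -0.57 ± 0.10 (SE, n = 3, edgeR adjusted p = 0.00720). H2-D1 (chromosome 17, 35262730 to 35267499, plus strand) stood at 546, 661 and 684 CPM in WT and 490.5, 434 and 478 CPM in CREBH-KO (-0.43 ± 0.10, edgeR adjusted p = 0.0322). Summed over both heavy chains, CREBH-KO held 69.3% of the WT level (1524 ± 105 against 2198 ± 189 CPM, SD, n = 3).

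B2m, which lies outside the MHC on chromosome 2 (122147686 to 122153083, plus strand), fell as well. It was read at 1214, 1139 and 1040 CPM in WT and 872, 748 and 941 CPM in CREBH-KO (-0.41 ± 0.11 SE, edgeR adjusted p = 0.0446). Nlrc5, on chromosome 8, was read at 28.3, 31.2 and 27.0 CPM in WT and 24.3, 18.3 and 21.8 CPM in CREBH-KO. Its log2 fold change of -0.43 ± 0.12 was just inside the threshold (edgeR adjusted p = 0.0498). For H2-D1, B2m and Nlrc5 the genotypes did not overlap, which was so for 30.6% of all tested genes. Per kilobase of exon, B2m was the most abundant member in both genotypes, at 1315 ± 102 CPM per kb in WT and 992 ± 114 in CREBH-KO (SD, n = 3). H2-K1 (533.5 ± 39.3) and H2-Q10 (505 ± 51.8) followed in WT within each other's spread, and H2-D1 (244 ± 28.7) came next.

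Of the members that fell, H2-Q1 and H2-Q7 had the lowest fold changes. H2-Q1 (chromosome 17, 35320405 to 35325099, plus strand) was read at 20.7, 26.2 and 23.4 CPM in WT and 12.7, 9.53 and 9.64 CPM in CREBH-KO. The log2 fold change was -1.14 ± 0.14 (SE, n = 3, edgeR adjusted p = 0.00191). H2-Q7, which with H2-Q6 encodes the membrane-anchored molecule Qa-2, stood at 37.0, 48.5 and 63.2 CPM in WT and 27.6, 23.2 and 21.9 CPM in CREBH-KO (-1.03 ± 0.18, edgeR adjusted p = 0.00810). H2-Q6 fell by less (-0.70 ± 0.18, edgeR adjusted p = 0.0396). H2-Q6 and H2-Q7 are close copies, and reads that match several places were set aside, so their separate values are uncertain. H2-Q10, a secreted class I molecule made by the liver, was the most abundant H2-Q gene, at 2197, 2422 and 1971 CPM in WT and 1639, 1555 and 1525 CPM in CREBH-KO. All CREBH-KO libraries of H2-Q10 were below all WT libraries (-0.48 ± 0.10, edgeR adjusted p = 0.0182). H2-Q2, at 6.57, 6.38 and 8.26 CPM against 5.80, 2.64 and 1.93 CPM, had a value of -1.03 ± 0.35 (edgeR adjusted p = 0.104) and passed without CREBH-KO 1. H2-Q4 was the exception among the H2-Q genes, at 36.1, 37.8 and 44.1 CPM in WT and 38.2, 34.0 and 38.1 CPM in CREBH-KO (-0.10 ± 0.10).

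The H2-T genes differed among themselves. H2-T22 was read at 81.8, 93.8 and 94.6 CPM in WT and 77.0, 57.8 and 64.8 CPM in CREBH-KO (-0.44 ± 0.11 SE, edgeR adjusted p = 0.0415). Of its exonic bases, 29.4% lie within the antisense gene A930015D03Rik, whose reads could be counted with it if strand was not used. H2-T23, which encodes Qa-1, the molecule that shows class I leader peptides to NK cells, overlapped between genotypes. It stood at 169, 210 and 209 CPM in WT and 233, 162 and 201 CPM in CREBH-KO (0.02 ± 0.14, edgeR adjusted p = 0.943). H2-T3, at 0.423 to 1.22 CPM in WT and 0.0612 to 0.644 CPM in CREBH-KO, had the lowest value of all members, with a wide error (-1.50 ± 0.73). H2-T24 (-0.02 ± 0.26) and H2-M3 (0.05 ± 0.32), which presents formylated bacterial peptides, were near 0.

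The number of called MHC members changed with the libraries used. The 9 falls became 3 without WT 2, 5 without WT 3, 3 without CREBH-KO 2 and 3 without CREBH-KO 3. With CREBH-KO 1 alone against WT, the median of MHC members was -0.30, beside -0.01 for all tested genes. Without CREBH-KO 1 there were 9 falls and 1 rise. Falls over all tested genes also dropped, from 1007 to 449 without WT 2 and 697 without WT 3. They numbered 550, 515 and 910 without CREBH-KO 2, CREBH-KO 3 and CREBH-KO 1. The values of the 9 genes stayed below 0 in every one of the 13 alternative fits. H2-K1, H2-Q1 and H2-Q7 passed in 12 of them, failing with CREBH-KO 1 alone (edgeR adjusted p of 0.153, 0.0720 and 0.210). For H2-Q10 the call depended on WT 2, CREBH-KO 2 and CREBH-KO 3, and for H2-D1 on these and WT 3. It depended on the same 4 libraries for H2-T22, on these and WT 1 for Nlrc5, on these and CREBH-KO 1 for H2-Q6, and on every library except WT 3 for B2m. Over all alternatives the adjusted p of these genes reached 0.495, that of H2-T22. Scaling by library size alone or by upper-quartile factors left 5 falls, and B2m, Nlrc5, H2-Q6 and H2-T22 were the genes that no longer passed. Over all genes, library size alone gave 813 higher and 726 lower calls, against 609 and 1007 with TMM scaling.

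The promoters of 4 class I genes that fell are shown beside that of H2-Q10 because class I promoters carry a known module in which NLRC5 acts with other factors. That module contains an X2 box with the core TGACG, a cAMP response element core, and a Y box with CCAAT. Sequences are the 200 bases before the RefSeq start (GRCm38.p6), 5' to 3' on the gene's strand. Capitals mark the core TGACG, the box CCAAT and the ISRE letters on either strand.
H2-K1 (chr17:34000348-34000547, minus strand): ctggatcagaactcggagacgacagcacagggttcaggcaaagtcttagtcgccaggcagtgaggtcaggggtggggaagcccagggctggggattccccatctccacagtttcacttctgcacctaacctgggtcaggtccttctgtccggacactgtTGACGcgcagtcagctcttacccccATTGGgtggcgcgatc
H2-D1 (chr17:35262894-35263093, plus strand): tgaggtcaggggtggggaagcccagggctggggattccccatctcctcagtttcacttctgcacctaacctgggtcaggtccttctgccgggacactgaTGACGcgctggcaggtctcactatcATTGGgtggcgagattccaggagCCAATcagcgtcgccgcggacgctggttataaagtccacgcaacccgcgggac
H2-Q7 (chr17:35438955-35439154, plus strand): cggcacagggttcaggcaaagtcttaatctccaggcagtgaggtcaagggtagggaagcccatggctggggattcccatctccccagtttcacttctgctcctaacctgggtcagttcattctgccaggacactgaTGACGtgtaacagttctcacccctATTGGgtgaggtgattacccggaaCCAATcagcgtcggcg
B2m (chr2:122147487-122147686, plus strand): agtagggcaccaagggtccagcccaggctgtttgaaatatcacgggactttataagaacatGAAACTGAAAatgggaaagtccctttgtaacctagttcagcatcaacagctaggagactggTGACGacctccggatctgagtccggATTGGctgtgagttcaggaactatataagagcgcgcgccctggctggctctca
H2-Q10 (chr17:35469889-35470088, plus strand): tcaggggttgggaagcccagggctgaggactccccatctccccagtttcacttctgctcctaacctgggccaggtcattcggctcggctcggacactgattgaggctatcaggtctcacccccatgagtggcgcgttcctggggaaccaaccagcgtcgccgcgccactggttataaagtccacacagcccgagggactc
H2-K1, H2-D1, H2-Q7 and B2m each hold TGACG followed by CCAAT on the opposite strand, with the pair at 41 and 16 bases before the start of H2-K1 and at 101 and 76 before that of H2-D1. H2-Q10, which also fell, holds no exact match to the 3 searched strings in this stretch. B2m has ISRE letters at 139 to 130 bases before the start. The search marks exact letters only, so an interferon element with other letters would be left unmarked. Lack of capitals in H2-K1, H2-D1, H2-Q7 or H2-Q10 thus does not show that such an element is absent. Within the window from 250 bases before to 50 after a start, CCAAT stood in 89.5% of the 19 tested MHC members covered and in 42.5% of tested genes covered. TGACG stood in 47.4% and 33.8%, and the ISRE letters in 15.8% and 3.82%. Of the 9 MHC members with both TGACG and CCAAT, 5 fell, with a median of -0.41. Of the 10 without both, 2 fell, with a median of -0.17. The class II genes H2-DMa, H2-DMb1, H2-DMb2, H2-Eb1 and H2-Ob are among those without both. H2-Aa is the only class II gene with both. The split by letters is thus mixed with class, and the part of either was not tested. Among other tested genes the shares that fell were 7.29% with both and 6.82% without.

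**Figure D3:**
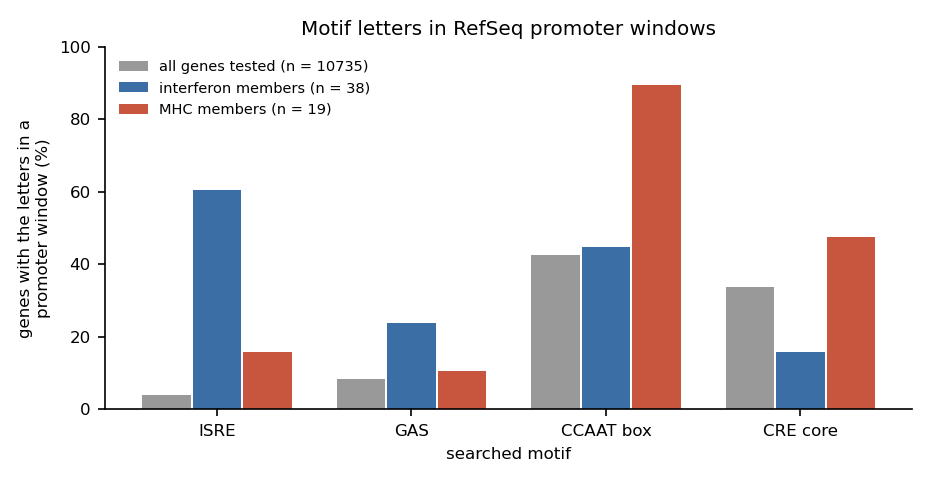
Percentage of genes (vertical axis) with each motif's letters on either strand of a RefSeq promoter window, for all tested genes covered (grey, n = 10735), interferon members (blue, n = 38) and MHC members (red, n = 19). GAS is TTCNNNGAA, an element bound by STAT dimers. ISRE letters stand in 60.5% of interferon members and CCAAT in 89.5% of MHC members.

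Most genes that supply and load peptides for class I did not pass. Tap1, a subunit of the peptide transporter, was read at 18.3, 27.5 and 27.2 CPM in WT and 20.4, 16.7 and 19.2 CPM in CREBH-KO. WT 1 lay within the range of CREBH-KO, and the gene did not pass (-0.37 ± 0.16 SE, edgeR adjusted p = 0.181). With WT 1 left out it did. Tap2, the other subunit, had a value of 0.00 ± 0.14. Beside 6.46% of all tested genes, 1 of 11 further genes of peptide supply and loading fell (9.09%), Psmb9. It encodes an inducible proteasome subunit and shares its promoter region with Tap1, their starts lying 211 bases apart on opposite strands. Psmb9 was read at 7.99, 10.2 and 10.3 CPM in WT and 5.56, 3.92 and 5.94 CPM in CREBH-KO (-0.88 ± 0.19, edgeR adjusted p = 0.0211). Leaving out WT 2, WT 3 or CREBH-KO 2, or taking CREBH-KO 1 alone, ended its call (adjusted p up to 0.191). The promoter factor gene Creb1 rose (0.60 ± 0.12, edgeR adjusted p = 0.0152), but missed the threshold when WT 2, CREBH-KO 2 or CREBH-KO 3 was left out or CREBH-KO 1 taken alone (adjusted p up to 0.359), and the other 6 factor genes did not pass. Of the full list of 24 presentation genes, 1 rose and 1 fell (4.17% each), beside 3.91% and 6.46% of all tested genes. The list had a median of -0.02, which turned to 0.05 with library size alone and to 0.01 with upper-quartile factors. The median of all tested genes moved in the same way, from 0.02 to 0.10 and 0.06, and the list's median was below it each time. The list had 0 called genes without WT 2 or CREBH-KO 2, 1 without WT 3 or CREBH-KO 3, and 4 without WT 1. Among all tested genes, 209 rose and 449 fell without WT 2, and 659 and 1147 without WT 1.

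Class II genes showed no call. Of 8 tested members none passed in edgeR, DESeq2 or limma-voom, and none had an unadjusted p under 0.05. The beta chain gene H2-Ab1 was read at 9.05, 19.3 and 28.6 CPM in WT and 17, 15.6 and 17.5 CPM in CREBH-KO. H2-Aa, the alpha chain, stood at 7.91, 16.3 and 26 CPM in WT and 13.8, 14.3 and 16.2 CPM in CREBH-KO, and H2-Eb1 at 6.83, 14.5 and 21.3 against 15.5, 14.2 and 15.6 CPM. In all 3 genes the CREBH-KO libraries lay between WT 1 and WT 3, and their log2 fold changes were -0.18 ± 0.32, -0.18 ± 0.33 and 0.09 ± 0.32. Summed over these genes, WT spanned 23.8 to 76.0 CPM and CREBH-KO 44.1 to 49.2 CPM. Without WT 3 the values of H2-Aa and H2-Ab1 turned to 0.29 and 0.24. Without WT 1 that of H2-Eb1 turned to -0.26. H2-DMa, which helps load class II molecules, stood at 0.58 ± 0.37 and Ciita at -0.43 ± 0.51, the latter at 0.543 to 1.98 CPM in WT and 0.612 to 1.15 CPM in CREBH-KO. The standard errors of these 3 genes were more than 3 times that of H2-K1. Whether class I and class II responded differently was not tested.

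Markers of other liver cells were read beside these genes. The 8 Kupffer cell and macrophage markers summed to 63.9, 76.9 and 141 CPM in WT and 71.1, 88.7 and 77.0 CPM in CREBH-KO, with none called. WT 3 was the highest and WT 1 the lowest WT library both for these markers and for H2-Aa, H2-Ab1 and H2-Eb1. Of the Kupffer cell and macrophage markers, only Vsig4 did not overlap, with CREBH-KO lower (-0.79 ± 0.26 SE, edgeR adjusted p = 0.0854). Marco had the highest value (0.72 ± 0.33) and overlapped. Markers of B cells (4 genes, 1.27 to 4.36 CPM in WT and 2.87 to 3.85 in CREBH-KO) and of T and NK cells (9 genes, 1.86 to 4.68 and 3.00 to 4.45 CPM) overlapped between genotypes. Dendritic cell markers (6 genes) summed to 7.42 to 9.85 CPM in WT and 9.02 to 11.5 CPM in CREBH-KO, and none of the 4 that could be tested was called. Itgax among them was read at 0.569, 0.188 and 0.325 CPM in WT and 0.966, 1.12 and 0.979 CPM in CREBH-KO, with no overlap (1.47 ± 0.43 SE, edgeR adjusted p = 0.0626). Siglech, too low to test, did not overlap either, at 0.0626 to 0.293 CPM in WT and 0.293 to 0.642 CPM in CREBH-KO. Its highest WT library and lowest CREBH-KO library nearly touched. The other dendritic cell markers overlapped between genotypes. These were Clec9a (0.35 ± 0.32 SE), Xcr1 (-0.08 ± 0.60), Zbtb46 (-0.19 ± 0.18) and Flt3, which was too low to test. The median of the tested dendritic cell markers was 0.14. Counting both directions, 30.6% of all tested genes did not overlap. Neutrophil markers (4 genes) summed to 1.00 to 1.37 and 1.23 to 3.09 CPM. The leukocyte gene Ptprc (CD45) rose from 1.91, 2.32 and 3.25 CPM to 5.24, 6.59 and 5.08 CPM (1.18 ± 0.24 SE, edgeR adjusted p = 0.0151). Leaving out WT 2 or CREBH-KO 2, or taking CREBH-KO 1 alone, ended its call (adjusted p up to 0.229). Ptprc thus moved with the interferon members that rose and opposite to the class I genes that fell, and the part of these markers in either result was not tested. Sinusoidal endothelial markers (5 genes) summed to 101 to 131 CPM in WT and 113 to 116 CPM in CREBH-KO, with none called. Without overlap, Lyve1 was higher (1.25 ± 0.44 SE, edgeR adjusted p = 0.114) and Stab2 lower (-0.25 ± 0.09, edgeR adjusted p = 0.115) in CREBH-KO. Clec4g (-0.34 ± 0.14), Kdr (-0.25 ± 0.12) and Pecam1 (0.30 ± 0.17) overlapped. Stellate cell markers summed to 53.9 to 65.3 and 56.1 to 77.9 CPM and cholangiocyte markers to 20.8 to 31.0 and 18.2 to 36.1 CPM. In each list 1 of 3 markers rose, Colec11 and Sox9, beside 3.91% of all tested genes. The other cholangiocyte markers, Epcam (-1.11 ± 0.39 SE, edgeR adjusted p = 0.107) and Krt19 (-0.35 ± 0.45), were below 0 and did not pass. The other stellate cell markers, Lrat (-0.08 ± 0.24) and Reln (0.08 ± 0.13), did not pass either. No marker was at 0 in all libraries. In whole liver, fewer cells of a type and less RNA per cell cannot be told apart.

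**Figure D4:**
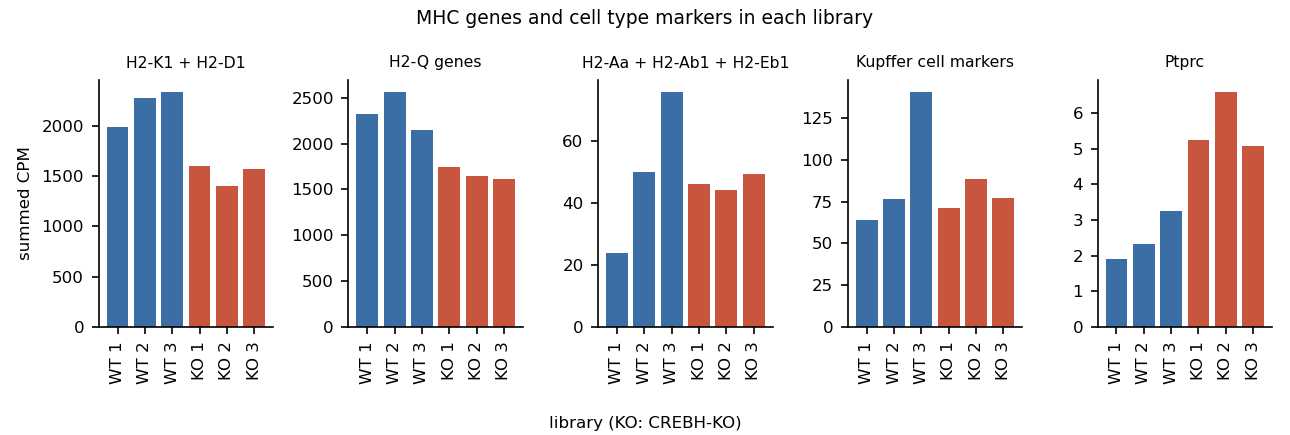
Summed CPM in each library (bars, blue WT, red CREBH-KO) of the classical class I heavy chains, the H2-Q genes, 3 class II genes, 8 Kupffer cell and macrophage markers, and Ptprc. Both class I panels are lower in every CREBH-KO library (1404 to 1599 against 1982 to 2336 CPM for H2-K1 and H2-D1), the class II and Kupffer panels overlap between genotypes, and Ptprc is higher in every CREBH-KO library.

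Within each genotype the members varied together. CREBH-KO 1 was the highest CREBH-KO library for 37 of 52 tested interferon members (71.2%) and for 15 of 17 class I members (88.2%), against 34.3% of all tested genes. CREBH-KO 2 was the lowest for 37 of the 52 (71.2%) and 11 of the 17 (64.7%), against 34.7% of all genes. Among WT libraries, WT 1 was the lowest for 34 interferon members (65.4%) and 12 class I members (70.6%), against 36.4% of all genes. Interferon and class I genes thus lay high or low in the same libraries of a genotype, whereas between genotypes the called genes of the 2 lists moved in opposite directions. For class II members the CREBH-KO pattern differed, with CREBH-KO 1 the lowest for 5 of 8.

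**Figure D5:**
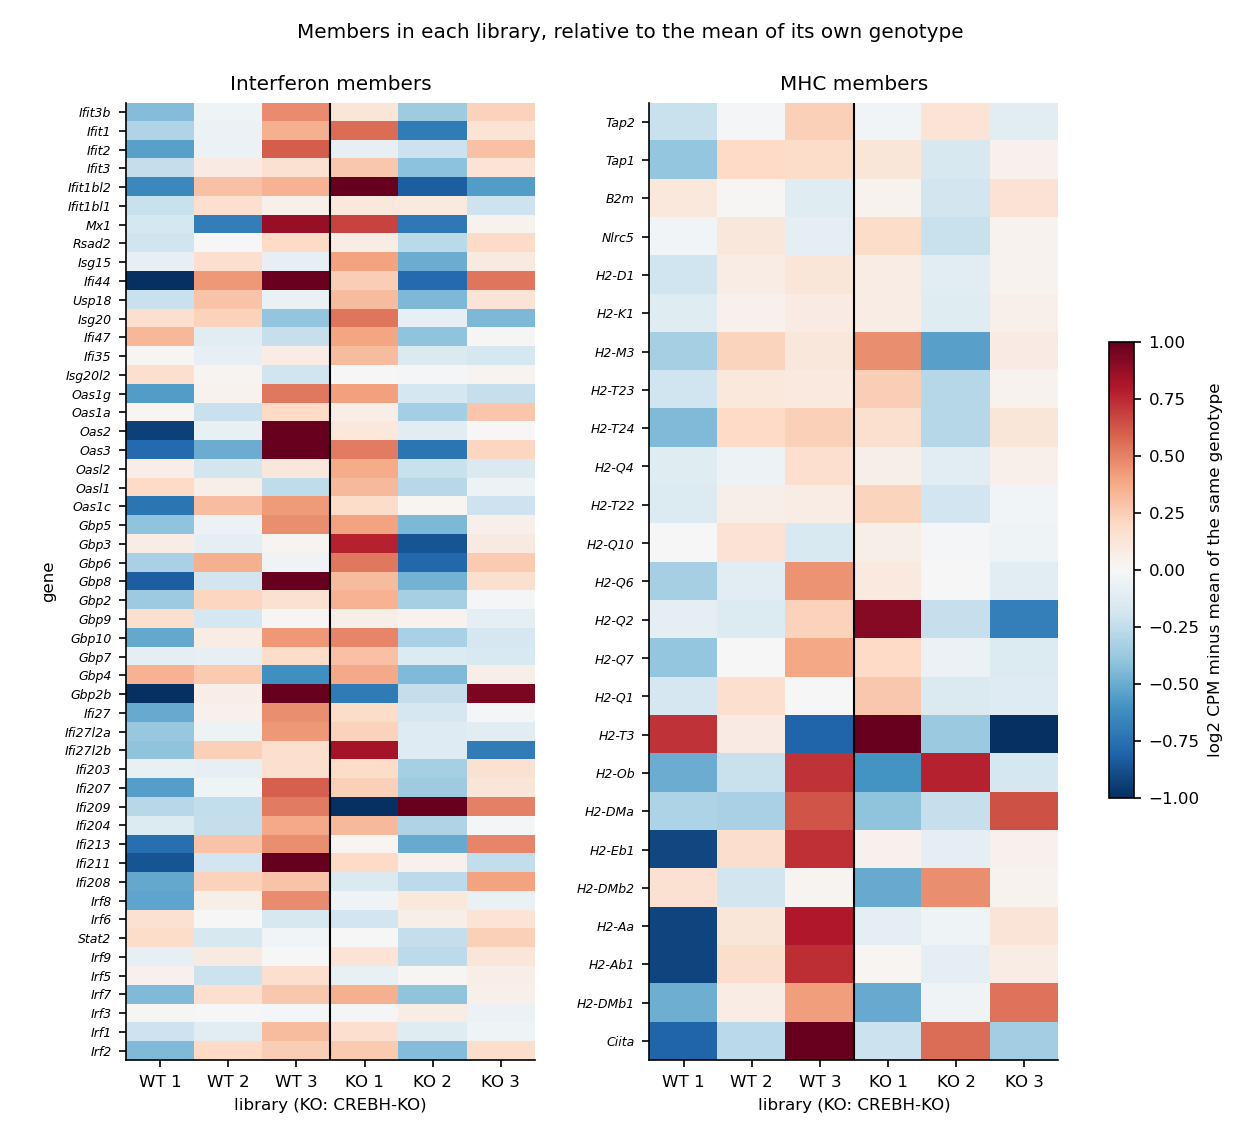
Log2 CPM of the same members, where they had counts in every library (rows), in each library (columns), minus the mean of the 3 libraries of the same genotype (colour, saturated at 1 in either direction). CREBH-KO 1 is mostly red and CREBH-KO 2 mostly blue in interferon and class I rows; the rows of H2-Aa, H2-Ab1 and H2-Eb1 run from blue in WT 1 to red in WT 3.

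Other genes of the MHC region were called in 7.48% of cases, below the 10.4% of all tested genes. From the first to the last tested H2 gene on chromosome 17 (33996017 to 37274484, GRCm38), 7 of 22 MHC members fell (31.8%). Of 107 other tested genes in that stretch, 6 fell (5.61%) and 2 rose, with a median of 0.01, against 6.46% of all tested genes that fell. Of the 3 tested MHC members on other chromosomes, B2m and Nlrc5 fell and Ciita did not pass.

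The remaining members were too low to test. These were 10 interferon members with at most 61 counts over the 6 libraries and 14 MHC members with at most 55. Ifi44l, Oas1d, Oas1e, Oas1f and 8 H2-M genes had no count at all. H2-Ke6, whose symbol places it among the H2 genes, had 55 counts, and 86.4% of its exonic bases are shared with another annotated gene.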

How the data were processed

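Total RNA of fasted mouse liver was sequenced in 3 WT and 3 CREBH-KO libraries, as paired-end reads, per the labels' protocols. The authors deposited 1 file of raw read counts per gene and library; the sample titles name HTSeq, per the labels. For aligner, genome build, annotation, HTSeq version and strand setting: not given in the sources used here. Every one of 55536 gene identifiers matched GENCODE M21 (GRCm38), which supplied symbols, biotypes and positions. HTSeq's summary rows held 27.4% to 31.2% of the listed reads (13.7% to 15.0% aligned to several places) and were left out, so members with close copies are uncertain, as are members that overlap antisense genes.

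The analysis used edgeR 4.0.16 in R 4.3.3: filterByExpr (minimum count 10, minimum total 15), TMM factors (0.967 to 1.05), and the quasi-likelihood test of CREBH-KO against WT over all 15589 genes, two-sided, with no covariate, Benjamini-Hochberg adjusted, called under 0.05. SE was taken as the size of the log2 fold change over the root of its F statistic. CPM used effective library sizes. Alternatives were DESeq2 1.42.0, limma-voom (limma 3.58.1), other scalings and filters, leaving out each library, and CREBH-KO 1 alone against WT, where the lone library is assumed to vary like WT. Replicate pairs of a group differed beyond sampling noise (chi-square at least 16.9 times its degrees of freedom).

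On counts simulated for this comparison (15589 genes, 15286 tested), recovery was 46.3% for 67 genes simulated at 1.5-fold. It was 62.7% for 67 genes at 2-fold and 97.0% for 66 at 4-fold. Genes simulated without change made up 9.27% of the calls. Members and lists were chosen with earlier results of these data known. Named members were those called, the 5 highest and 5 lowest fold changes at 1 CPM or more, and a set fixed by symbol; of the other lists, the called genes. Further members are named to complete a family, and they, the motif search, the MHC stretch and the order of libraries were chosen after values were seen. For 1 interferon member, values are not reported here, although counts and medians over the list include it. Promoter sequences are from RefSeq (GRCm38.p6), matched by symbol.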

Additional observations from a re-analysis of the deposited data

How the results depend on the processing

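Replicate numbers were given in accession order. No paired analysis was possible because the labels give no replicate number shared between the genotypes. The called interferon members, 4 in all, numbered 1 to 7 with 1 library left out. They numbered 10 in DESeq2 and 10 with no filter on low counts, each time 9 higher and 1 lower. The 9 called MHC members numbered 5 with library size alone, 5 with upper-quartile factors, and 3 to 10 with 1 library left out. The 7 called interferon pathway genes numbered 3 to 6 with 1 library left out. The 2 called antigen presentation pathway genes numbered 5 in DESeq2, 4 with no filter, and 0 to 4 with 1 library left out. With CREBH-KO 1 alone against WT, median log2 fold changes were 0.44 for interferon members and -0.30 for MHC members. They were 0.33 for interferon pathway genes, -0.095 for antigen presentation genes and -0.01 for all tested genes. Over all tested genes, rises ran from 209 to 659 and falls from 449 to 1147 with 1 library left out, against 609 and 1007. DESeq2 gave 814 rises and 1309 falls over all 15589 genes. With no filter there were 929 rises and 1527 falls among 28923 genes tested. The cause of these shifts was not tested.

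No gene that was called changed direction. Signs turned only in genes that did not pass. Tap2 took 0.074 with library size alone, 0.033 with upper-quartile factors, 0.015 in limma-voom and 0.0078 with the stricter filter (1 CPM in 3 libraries). Oasl1 took -6.3e-04 in DESeq2, -0.0035 in limma-voom and -0.014 with no filter. H2-Aa and H2-Ab1 took 0.028 and 0.013 in limma-voom. With 1 library left out the values ran from -0.12 to 0.12 for Tap2, -0.17 to 0.13 for Oasl1, -0.53 to 0.29 for H2-Aa, -0.53 to 0.24 for H2-Ab1, -0.26 to 0.50 for H2-Eb1, -0.78 to 0.29 for Ciita, -0.10 to 0.27 for Irf7 and -0.048 to 0.35 for Ifi47. For all named genes together, 21 alternative values turned in sign, 86 lost a call, 27 gained one and 502 did neither.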
